A study of Mus musculus with 20 samples.

Results

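The erythroid loci described here are the stretches of the mouse genome (mm9) that hold the beta-globin genes with Hbb-b1 (chromosome 7, 110.94 to 111.03 Mb), the alpha-globin genes with Hba-a1 and their upstream enhancers (chromosome 11, 32.1 to 32.21 Mb), Klf1 (chromosome 8, 87.415 to 87.435 Mb), Gfi1b (chromosome 2, 28.44 to 28.49 Mb), and Myb with its upstream enhancers (chromosome 10, 20.84 to 21.0 Mb). Every called histone mark peak that shared at least 1 bp with one of these 5 windows was taken as a member. The 8 peak lists held 148 such peaks among 218887 on chromosomes 1 to 19, X and Y. The windows measured 90, 110, 20, 50 and 160 kb, or 430 kb in all, and held 6, 40, 17, 29 and 56 peaks.

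Hematopoietic stem cells of B6129SF1 mice were assayed by ChIP-seq, the sequencing of DNA pulled down with an antibody to a histone mark. They were taken from fetal liver at embryonic day 14.5 or from the bone marrow of adults aged 6 to 8 weeks. At both stages the sort gate was Lin-Sca1+cKit+CD135-, which also admits early multipotent progenitors, and 50000 cells went into each pull-down. H3K4me3, H3K27ac, H3K4me1 and H3K27me3 were profiled at each stage in 2 replicates. Each list combines them, so no value below carries a replicate error and stages were compared without a test. A difference between stages, between libraries and between runs of the caller cannot be told apart here. Nor can a peak found at 1 stage tell a mark on more cells from more of the mark per cell.

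Globin genes encode the subunits of haemoglobin. In the mouse, the beta-like cluster is controlled by a distal locus control region and the alpha-like cluster by enhancers that lie upstream, partly inside introns of the neighbouring gene Nprl3. Klf1 is the erythroid zinc finger activator of globin genes, Gfi1b is a zinc finger repressor needed for red cell and platelet precursors, and Myb is a transcription factor of proliferating progenitors whose erythroid enhancers lie between it and Hbs1l. H3K4me3 marks active or poised gene starts, H3K27ac active starts and enhancers, H3K4me1 enhancers and the flanks of starts, and H3K27me3 chromatin repressed by Polycomb. Stem cells are not yet committed to the red cell lineage, in which globin genes are expressed at high levels.

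The sequences just upstream of the genes are shown first, because the loci differ in which of them carried H3K4me3. RefSeq entries (GRCm38.p6) were found for 4 of the 5 genes, the exception being Hbb-b1. For the beta-globin window Hbb-bs is shown instead, an adult beta-globin gene that the same annotation lists on chromosome 7 between Hbb-bt and the embryonic genes. Each line gives the 150 bases before the annotated start, 5′ to 3′ on the gene's own strand, with motif matches in capitals.
Hba-a1: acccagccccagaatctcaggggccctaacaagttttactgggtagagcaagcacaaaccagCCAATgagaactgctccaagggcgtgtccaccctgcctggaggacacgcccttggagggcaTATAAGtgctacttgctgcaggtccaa
Hbb-bs: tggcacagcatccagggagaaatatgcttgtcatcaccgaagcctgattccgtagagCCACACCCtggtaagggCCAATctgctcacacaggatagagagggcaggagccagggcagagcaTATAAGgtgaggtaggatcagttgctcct
Klf1: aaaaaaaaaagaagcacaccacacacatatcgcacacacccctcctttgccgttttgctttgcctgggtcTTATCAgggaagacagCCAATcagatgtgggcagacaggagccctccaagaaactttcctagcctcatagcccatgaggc
Gfi1b: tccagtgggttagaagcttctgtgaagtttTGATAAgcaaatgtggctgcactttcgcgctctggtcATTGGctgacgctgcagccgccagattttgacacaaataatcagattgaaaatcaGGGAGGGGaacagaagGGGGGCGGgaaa
Myb: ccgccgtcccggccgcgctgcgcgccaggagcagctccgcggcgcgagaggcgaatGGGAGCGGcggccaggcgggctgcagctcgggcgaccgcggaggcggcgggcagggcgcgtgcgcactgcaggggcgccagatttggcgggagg
Hba-a1 and Klf1 are on the plus strand and the others on the minus strand. The motifs searched were those bound by GATA factors (AGATAA as well as TGATAA, and likewise AGATAG as well as TGATAG), the CACCC motif of Klf proteins (CCNCNCCC) and CCAAT, on both strands, and the TATA box (TATAAA or TATAAG) on the gene's strand. No matches overlapped. The GATA motif was found upstream of Klf1, from -80, and of Gfi1b, from -120, counting back from the start, and 16.0% of the 32851 upstream stretches of the same length in the table hold it. A TATA box was found upstream of Hba-a1, from -27, and of Hbb-bs, from -29, as in 7.28% of all stretches. CCAAT matches, present in 24.5% of all stretches, lay upstream of every one of these genes other than Myb. CACCC matches, present in 38.1%, lay upstream of Hbb-bs, Gfi1b (2 matches) and Myb. Base composition set Myb apart from the other genes: its stretch had 80.7% G or C and 26 CpG dinucleotides, and only 1.51% of all stretches had as many. Gfi1b had 5 CpG, while Hba-a1, Hbb-bs and Klf1 had 2 each, a number reached by 70.7% of stretches. A match is a description of letters and not of binding. The positions of these stretches in mm9 were not used here, so no peak is assigned to a gene start below.

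H3K4me3 was shared between stages wherever it was called in the windows, as it was at most peaks of the whole lists. The beta-globin window had none. Each of the 11 fetal and 11 adult H3K4me3 peaks overlapped the other stage, so 0 of 11 stood alone at either stage, where 9.02% of the whole fetal and 7.22% of the whole adult list did. The count depends on the window edges. A fetal H3K4me3 peak ended 0.45 kb before the alpha-globin window, where the nearest adult one before that window ended 199 kb away. With 11 peaks the 95% Clopper-Pearson interval for the share that overlapped reaches down to 71.5%. That interval covers counting error only, and peaks of 1 locus are not independent. Joined over both stages, these peaks formed 11 H3K4me3 regions, all marked at both stages, against 84.9% of the 18146 regions in all. H3K27ac was called at both stages at 9 of the 11, against 65.4% of all regions.

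Acetylation was stage-restricted at about the rate of the whole lists. Of the 17 fetal H3K27ac peaks 6 had no adult peak, or 35.3%, close to the 34.7% of the list. Of the 13 adult peaks 2 had no fetal peak, or 15.4%, against 11.4%. The 6 were 2 of the beta-globin window and 4 of the Myb window, and the adult pair lay in the alpha-globin and Klf1 windows. Of the 8 fetal peaks at or above the median score, only the wide beta-globin peak lacked an adult partner, and 8.86% of such peaks in the list did. Of the 9 below the median 5 did, against 60.6%. In the adult list 0 of 5 at or above the median and 2 of 8 below it lacked a fetal peak, against 0.615% and 22.2%. The adult H3K27ac list was shorter, with 18205 peaks, and 3 of the 6 fetal peaks ranked beyond that number by score, namely a pair in the Myb window and the narrower one of the beta-globin window. With equal numbers of top-scoring peaks from each list, the order of the counts turned, with 12 fetal and 13 adult H3K27ac peaks in the windows. The covered length did not turn, with 28384 bp in the fetal and 24692 bp in the adult list.

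**Figure D1:**
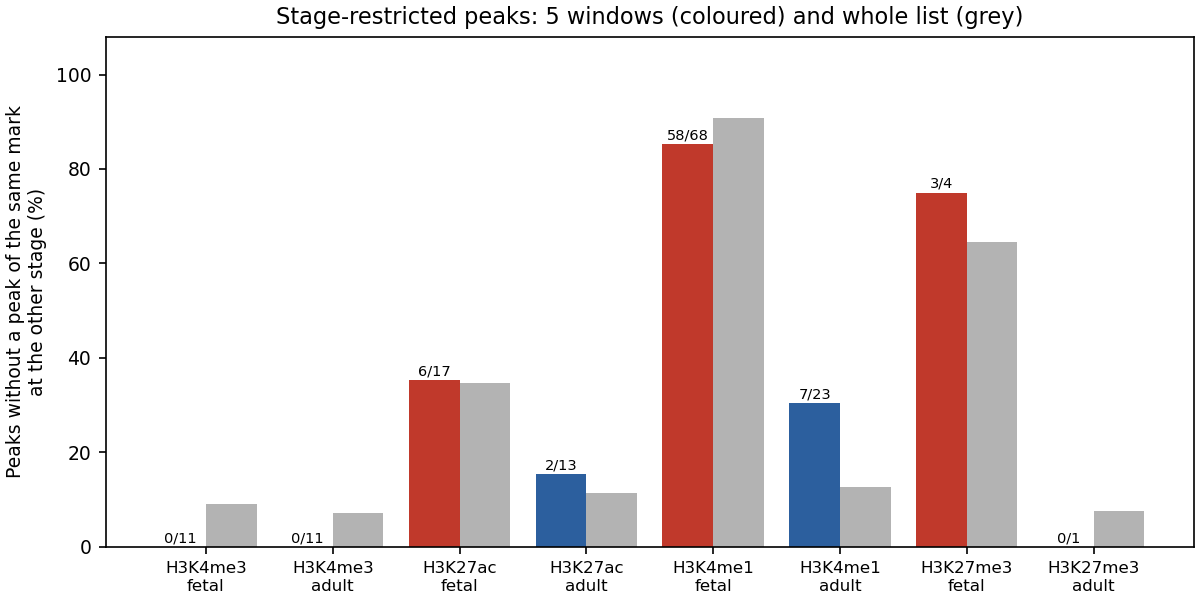
Percent of peaks with no overlapping call of that mark in the list of the other stage, in the 5 windows (coloured, with the number of peaks above each bar) and in the whole list (grey). The bars are close for H3K27ac, with 6 of 17 fetal peaks against 34.7%, and differ most in points for adult H3K4me1, with 7 of 23 against 12.6%.

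The fetal H3K4me1 list was the longer one, with 92784 peaks against 12517 in the adult list, and the windows held 68 and 23 of them. When equal numbers of top-scoring peaks were taken from each list, the order of the counts turned, with 9 fetal and 23 adult peaks in the windows. The covered length did not turn, with 19309 bp in the fetal and 5372 bp in the adult list. Of the 68 fetal peaks 58 had no adult peak, or 85.3%, near the 90.8% of the list. At or above the median score this was so for 27 of 37, against 83.8%, and below it for 31 of 31, against 97.7%. Of the 23 adult peaks 7 had no fetal peak, or 30.4%, where 12.6% of the adult list had none. At or above the median score 4 of 13 had none, against 7.70%, and below it 3 of 10, against 17.6%. The 95% Clopper-Pearson interval for the adult peaks that did have a fetal one, 69.6% of the 23, ran from 47.1% to 86.8%. The 7 came from 2 loci, with 2 in the beta-globin window and 5 in the Myb window.

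Overlaps between marks were counted in the windows and in the whole lists. Fetal H3K4me3 peaks held fetal H3K4me1 in 11 of 11 cases, against 84.9% of the list, and fetal H3K27ac in 9 of 11, against 74.2%. Adult H3K4me3 peaks held adult H3K27ac in 10 of 11 cases, against 75.7%, and adult H3K4me1 in 2 of 11, against 10.1%. Fetal H3K27ac peaks lay on H3K4me3 in 9 of 17 cases, against 53.2%, and on H3K4me1 in 16 of 17, against 88.1%. For adult H3K27ac these numbers were 10 of 13, against 70.5%, and 4 of 13, against 20.7%. Fetal H3K4me1 peaks held H3K27ac in 25 of 68 cases, against 41.4%, and adult ones in 5 of 23, against 45.2%. The last of these shares lies furthest below its list, and no test of that difference was made.

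Distal elements were formed by joining overlapping H3K4me1 and H3K27ac peaks from either stage, wherever the joined stretch touched no H3K4me3. The windows held 45 of the 57344 in all, with 23 in the Myb, 13 in the Gfi1b, 6 in the alpha-globin, 3 in the beta-globin and 0 in the Klf1 window. H3K27ac was present at 9 of the 45. It was fetal only at 6 of the 9, adult only at 1 and shared at 2, against 61.4%, 8.35% and 30.2% of the 11149 acetylated elements in all. The 6 lay in the Myb and beta-globin windows, the 1 in the alpha-globin window, and the 2 in the Gfi1b and Myb windows. Fetal H3K4me1 without adult H3K4me1 and without H3K27ac at either stage was found at 27 of the 45, against 75.1% of all elements. H3K27me3 was not considered in that count. H3K4me1 was called at both stages at 10 of the 45, against 8.76% of all elements, and 5 of the 10 were in the Gfi1b window. It was called in the adult list only at 4 of the 45, against 2.08%.

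In the beta-globin window no H3K4me3 and no H3K27me3 peak was called at either stage. The nearest H3K4me3 peak outside it ended 1104 kb before its start in the fetal list, and the nearest one after it began 337 kb past its end. Tiles of the same length along the chromosomes held a fetal H3K4me3 peak in 32.8% of cases. In the annotation the beta-like genes sit inside a run of olfactory receptor genes, from Olfr67 to Olfr66. How reads that match several places were counted is not given in the sources used here, so an absent call need not mean an absent mark.

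What the beta-globin window did hold was a fetal stretch of H3K27ac without an adult counterpart. A fetal peak of 4182 bp lay at chr7:110956380-110960561, with a score of 480.58 from the authors' peak caller, which ranked 9057 of 23797 by score and 1352 by width. A second fetal peak of 708 bp followed at chr7:110960663-110961370, scored 65.01 and ranked 21859. The adult list had no H3K27ac peak in the window, and its nearest one after the window began 223 kb past the end. Of the 1352 fetal H3K27ac peaks that are at least 4182 bp wide only 70, or 5.18%, lacked an adult peak, against the 34.7% of the whole list. Among those of the 1352 that were also free of H3K4me3 at both stages, 61 of 469 lacked one, or 13.0%. The width limit was this peak's own width, and these classes were not matched to it by score. Of fetal H3K27ac peaks at or above the median score, where it lies, 8.86% lacked an adult peak.

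H3K4me1 was called at both stages inside the wide fetal H3K27ac stretch, but not at the same places. The fetal peak of 672 bp lay at chr7:110957937-110958608 and was scored 174.07. The adult peaks, each 185 bp wide, lay on either side of it at chr7:110956877-110957061 and chr7:110959970-110960154, with scores of 65.84 and 83.05. A further fetal H3K4me1 peak of 280 bp, scored 89.12, stood alone at chr7:111009741-111010020. No other peak was called in the window, so the adult lists held 2 narrow H3K4me1 peaks there and nothing else.

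In the alpha-globin window H3K4me3 was called at the same 4 regions at both stages, and H3K27ac was present at all 4 regions at both stages. The fetal H3K4me3 peaks were 1801, 1977, 1358 and 1631 bp wide and began 4.53, 21.0, 26.1 and 66.6 kb into the window. The adult peaks there measured 1626, 1954, 1566 and 1708 bp. The stages shared 87.3% of the length that H3K4me3 covered at either. All 4 peaks stood near the middle of their lists by score, between the top 40.8% and 52.9% in the fetal and between 44.1% and 56.4% in the adult list. The annotation orders the protein-coding genes here as Snrnp25, Rhbdf1, Mpg and Nprl3, which work in splicing, membrane protein trafficking, base excision repair and nutrient signalling, and then Hba-x, Hba-a1, Hbq1b, Hba-a2 and Hbq1a, the alpha-like globins. Beyond the last H3K4me3 region, from 68.4 kb to the end of the window, no H3K4me3 or H3K27ac peak was called at either stage.

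Of the 5 windows, the alpha-globin window held H3K27me3 peaks, 4 fetal and 1 adult, and the others held none. The mark is uncommon at this scale: fetal H3K27me3 occurred in 19.99%, 22.7%, 7.14%, 13.4% and 29.3% of tiles as long as the beta-globin, alpha-globin, Klf1, Gfi1b and Myb windows. Its presence in 1 window of 5 is thus near the background. A fetal H3K27me3 peak of 3445 bp at chr11:32120409-32123853, scored 1296.48 and ranked 2313 of 14823, covered the whole of the second H3K4me3 region. Overlapping calls from a sorted population cannot tell both marks on the same chromatin from marks on different cells or alleles. The adult list had a single H3K27me3 peak, 462 bp wide and scored 184.00, within it at chr11:32122294-32122755, and 7.57% of the adult list had no fetal peak. H3K27ac was also called there, with 1028 bp in the fetal and 1405 bp in the adult list, and H3K27me3 of the same stage overlapped these peaks by 1028 and 255 bp. This was 1 of 11 H3K4me3 peaks of the windows with H3K27me3 at each stage, against 22.3% of the fetal and 12.9% of the adult list.

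The other 3 fetal H3K27me3 peaks lay in the last part of the alpha-globin window, where no other mark was called beyond 71.1 kb. They spanned 3139 bp at chr11:32176297-32179435, 751 bp at chr11:32187319-32188069 and 1378 bp at chr11:32200647-32202024. Their scores were 434.42, 94.46 and 147.63. None had an adult H3K27me3 peak, so 3 of the 4 fetal peaks stood alone, against 64.5% of the fetal list. Fetal peaks covered 8713 bp or 7.92% of the window, and the adult peak covered 0.420%. Alpha-globin genes occur as near-identical copies, and how reads that match several copies were counted is not given in the sources used here.

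H3K4me1 in the alpha-globin window was mainly fetal, as it was in the whole lists, which held 92784 fetal and 12517 adult peaks. There were 14 fetal H3K4me1 peaks, covering 8591 bp, and 4 adult ones, covering 914 bp. Much of it lay on H3K4me3 regions, and 5 of the window's 6 distal elements carried H3K4me1. The strongest fetal peak, 1996 bp at chr11:32124367-32126362, was scored 1347.79 and ranked 1248 of 92784. It overlapped H3K4me3 by 307 bp in the fetal and 626 bp in the adult list, so it was not a distal element. The strongest adult peak, 352 bp at chr11:32125859-32126210 and ranked 639 of 12517, lay inside that fetal peak and wholly on adult H3K4me3. All 4 adult H3K4me1 peaks overlapped a fetal one, where 12.6% of the adult list did not. The window's only distal H3K27ac, that is, H3K27ac away from H3K4me3, was an adult peak of 1119 bp at chr11:32147370-32148488. It was scored 93.89, ranked 14566 of 18205, and had neither H3K4me1 nor any fetal mark.

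**Figure D2:**
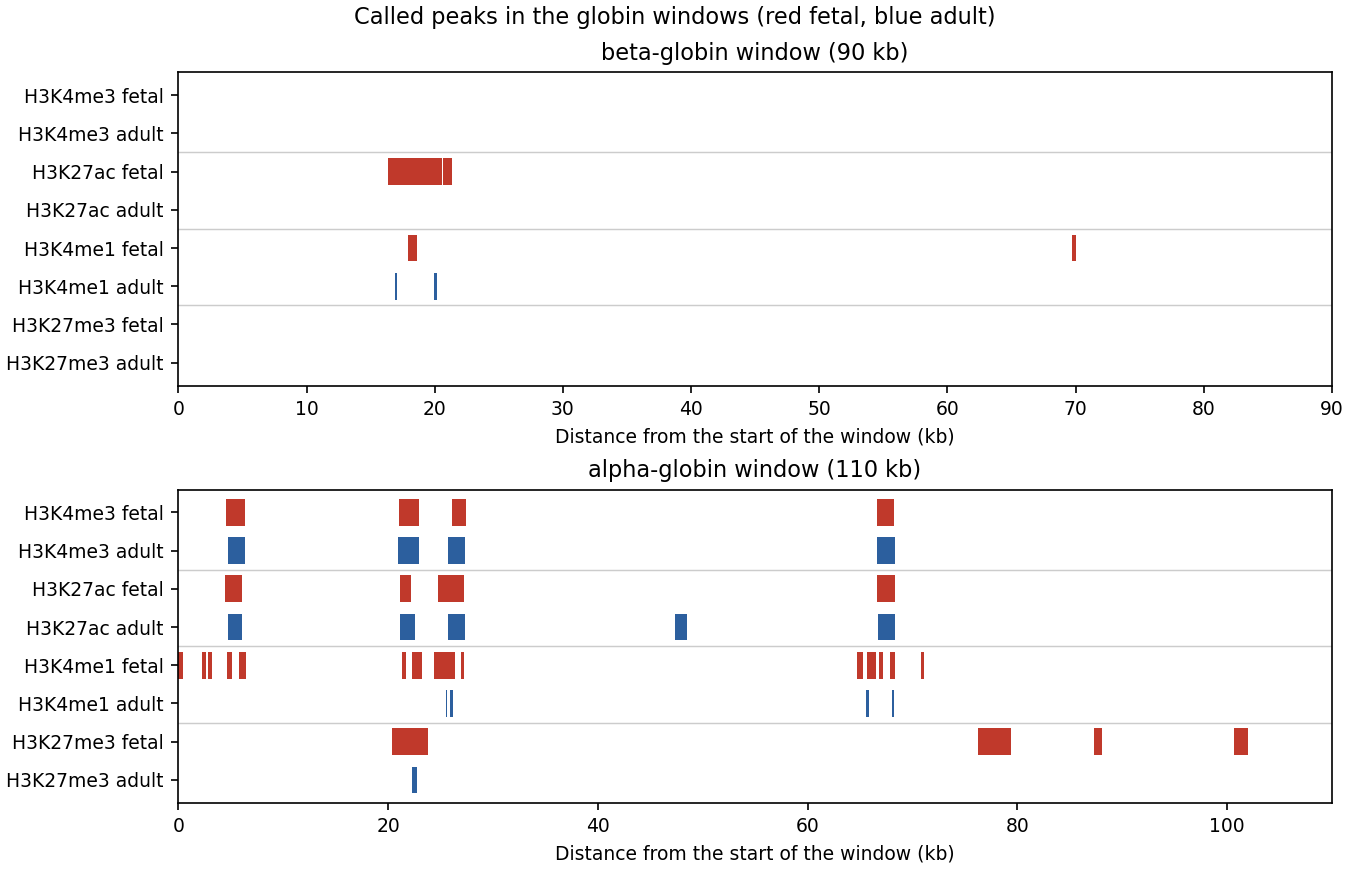
Called peaks in the beta-globin (90 kb) and alpha-globin (110 kb) windows, drawn to scale by distance from the window's start in kb, with 1 row per mark and stage (fetal red, adult blue). The beta-globin window has fetal H3K27ac and no H3K4me3; the alpha-globin window has 4 H3K4me3 regions at both stages and 4 fetal H3K27me3 peaks against 1 adult peak.

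The Klf1 window, the shortest of the 5 at 20 kb, had the highest density of H3K4me3 as a percent of its length. Its 3 H3K4me3 regions were called at both stages and covered 26.3% of the window in the fetal and 27.7% in the adult list. As much fetal cover was reached by 395 of 131899 tiles of 20 kb. In length, fetal H3K4me3 covered 5265 bp here. It covered 7899, 6767, 2497 and 0 bp in the Myb, alpha-globin, Gfi1b and beta-globin windows. The regions lay at chr8:87416805-87418454, chr8:87426062-87427953 and chr8:87431808-87433845. The fetal peaks were 1597, 1864 and 1804 bp wide and the adult peaks 1625, 1882 and 2038 bp. Gene order in the annotation is Gcdh, a mitochondrial dehydrogenase, the long noncoding RNA Gm39213, Klf1, Dnase2a, a lysosomal nuclease that degrades the DNA of expelled red cell nuclei, and Mast1, a kinase.

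H3K27ac was present at both stages at the latter pair of these regions. The fetal H3K27ac peaks there measured 1630 and 1669 bp, with scores of 306.96 and 538.30. The adult peaks measured 2105 and 1759 bp, with scores of 281.30 and 466.57. At the first region H3K27ac was called in the adult list only, as a peak of 1056 bp at chr8:87416958-87418013. That peak was scored 80.46 and ranked 15420 of 18205. H3K27ac found in the adult list alone occurred at 5.65% of all H3K4me3 regions. All 6 H3K4me1 peaks of the Klf1 window were fetal, with scores from 60.69 to 274.54, and all of them overlapped H3K4me3 regions. Of the whole fetal list 90.8% had no adult H3K4me1 peak. Tiles of 20 kb held fetal H3K4me1 in 23.6% and adult H3K4me1 in 5.49% of cases, so its absence from the adult list is no result about the locus. No H3K27me3 was called in the window, although a fetal peak began 0.38 kb past its end.

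The Gfi1b window combined an H3K4me3 region free of H3K27ac with a distal element that had strong fetal H3K4me1. H3K4me3 was called once at each stage, over 2497 bp at chr2:28475263-28477759 in the fetal and 2794 bp at chr2:28475239-28478032 in the adult list, and the adult peak contained the whole fetal one. These were wide for their lists, ranking 3387 of 17104 and 2169 of 16693 by width. Neither stage had H3K27ac there, which was so at 22.8% of all H3K4me3 regions. Fetal H3K4me1 covered 1925 bp of the region in several pieces and adult H3K4me1 none of it. Gfi1b was the only protein-coding gene that the annotation placed between Gtf3c5, a subunit of a polymerase III factor, and Tsc1, a growth inhibitor.

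The distal element of the Gfi1b window carried both enhancer marks at both stages. A fetal H3K4me1 peak of 4749 bp at chr2:28452754-28457502 was scored 2754.19, which ranked 182 of 92784 by score and 174 by width. H3K27ac lay within it, over 3559 bp at chr2:28452815-28456373 in the fetal and 3117 bp at chr2:28453052-28456168 in the adult list. The adult H3K27ac peak was contained in the fetal one and ranked 1400 of 18205 by width. By score the fetal H3K27ac peak ranked 8150 of 23797 and the adult one 7742 of 18205. Adult H3K4me1 was called in the same element as 2 peaks of 244 and 270 bp. This was the only H3K27ac of the window at either stage.

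H3K4me1 covered more of the Gfi1b window than of any other. The 18 fetal peaks covered 27.96% of it, a level reached by 0.807% of tiles of 50 kb. The 7 adult peaks covered 3.70%, a level reached by 0.330%. Each of the 7 adult peaks overlapped a fetal peak, where 12.6% of the adult list did not. The top adult peak, 568 bp at chr2:28473030-28473597, was scored 162.09 and ranked 372 of 12517. It overlapped the start of a fetal peak of 1384 bp, between the acetylated element and the H3K4me3 region.

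The Myb window held the strongest and widest H3K4me3 of the 5. The fetal peak at chr10:20875854-20881799 was 5946 bp wide and the adult peak at chr10:20875490-20882028 was 6539 bp wide and contained it. By width they ranked 65 of 17104 and 45 of 16693. Both were scored 3100, a value at which scores pile up in these lists. H3K27ac covered much of the region at both stages, with peaks of 4486 bp in the fetal and 5464 bp in the adult list. The adult H3K27ac peak ranked 178 of 18205 by width and 1229 by score, and the fetal one 1073 of 23797 and 4255. H3K4me1 flanked the region in the fetal list, over 2107 bp at chr10:20874658-20876764 and 414 bp at chr10:20881535-20881948. The adult list had no H3K4me1 on it.

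A further pair of smaller H3K4me3 regions stood at chr10:20906414-20907537 and chr10:20908111-20909377, called at both stages and acetylated at both. The fetal H3K4me3 peaks there had widths of 791 and 1162 bp and scores of 116.61 and 433.44. The adult peaks had widths of 1124 and 1180 bp and scores of 152.99 and 643.73. H3K27ac was wider than H3K4me3 at the former of them, with 2177 bp in the fetal and 2000 bp in the adult list. Between Myb and Hbs1l the annotation lists 4 long noncoding RNAs and a pseudogene.

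Of the 5 distal elements of the Myb window that carried H3K27ac, 4 had it in the fetal list only and 1 at both stages. Over all acetylated distal elements 61.4% were fetal only, so 4 of 5 is no result about the locus. The shared element, chr10:20971268-20972583, had 974 bp of fetal and 1183 bp of adult H3K27ac, scored 89.21 and 100.03. The fetal-only H3K27ac peaks lay at chr10:20872609-20874420, chr10:20911603-20913385, chr10:20915558-20916937 and chr10:20947405-20949196. They were between 1380 and 1812 bp wide. Their scores were 181.70, 80.98, 95.23 and 168.23, all in the lower part of the list, with ranks from 14921 to 20280 of 23797.

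All 4 of these elements also carried fetal H3K4me1, and at 2 of them it stood near the top of its list. At the first, a fetal H3K4me1 peak of 3541 bp was scored 1795.44 and ranked 636 of 92784. That element was free of H3K4me3 but not remote from it. It ended 34.4 kb into the window, and the wide H3K4me3 region began at 35.5 kb. At the second, a peak of 2804 bp was scored 1305.38 and ranked 1341. Adult H3K4me1 was called at the first, as 4 peaks that covered 1141 bp, and at the third, over 222 bp. So at 2 of the 4 elements the adult list had H3K4me1 without H3K27ac, and at the other 2 it had neither.

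Over the whole Myb window there were 28 fetal and 10 adult H3K4me1 peaks, which covered 21002 and 2238 bp. The whole lists held 92784 and 12517 H3K4me1 peaks, which covered 57.3 and 2.81 Mb. Of the 10 adult peaks in the window, 5 had no fetal partner, against 12.6% of the adult list. Of the 5, 1 peak, 250 bp wide and scored 85.29, lay in the shared acetylated element. The other 4 formed distal elements of their own, 143 to 180 bp wide and scored 50.51 to 68.81.

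**Figure D3:**
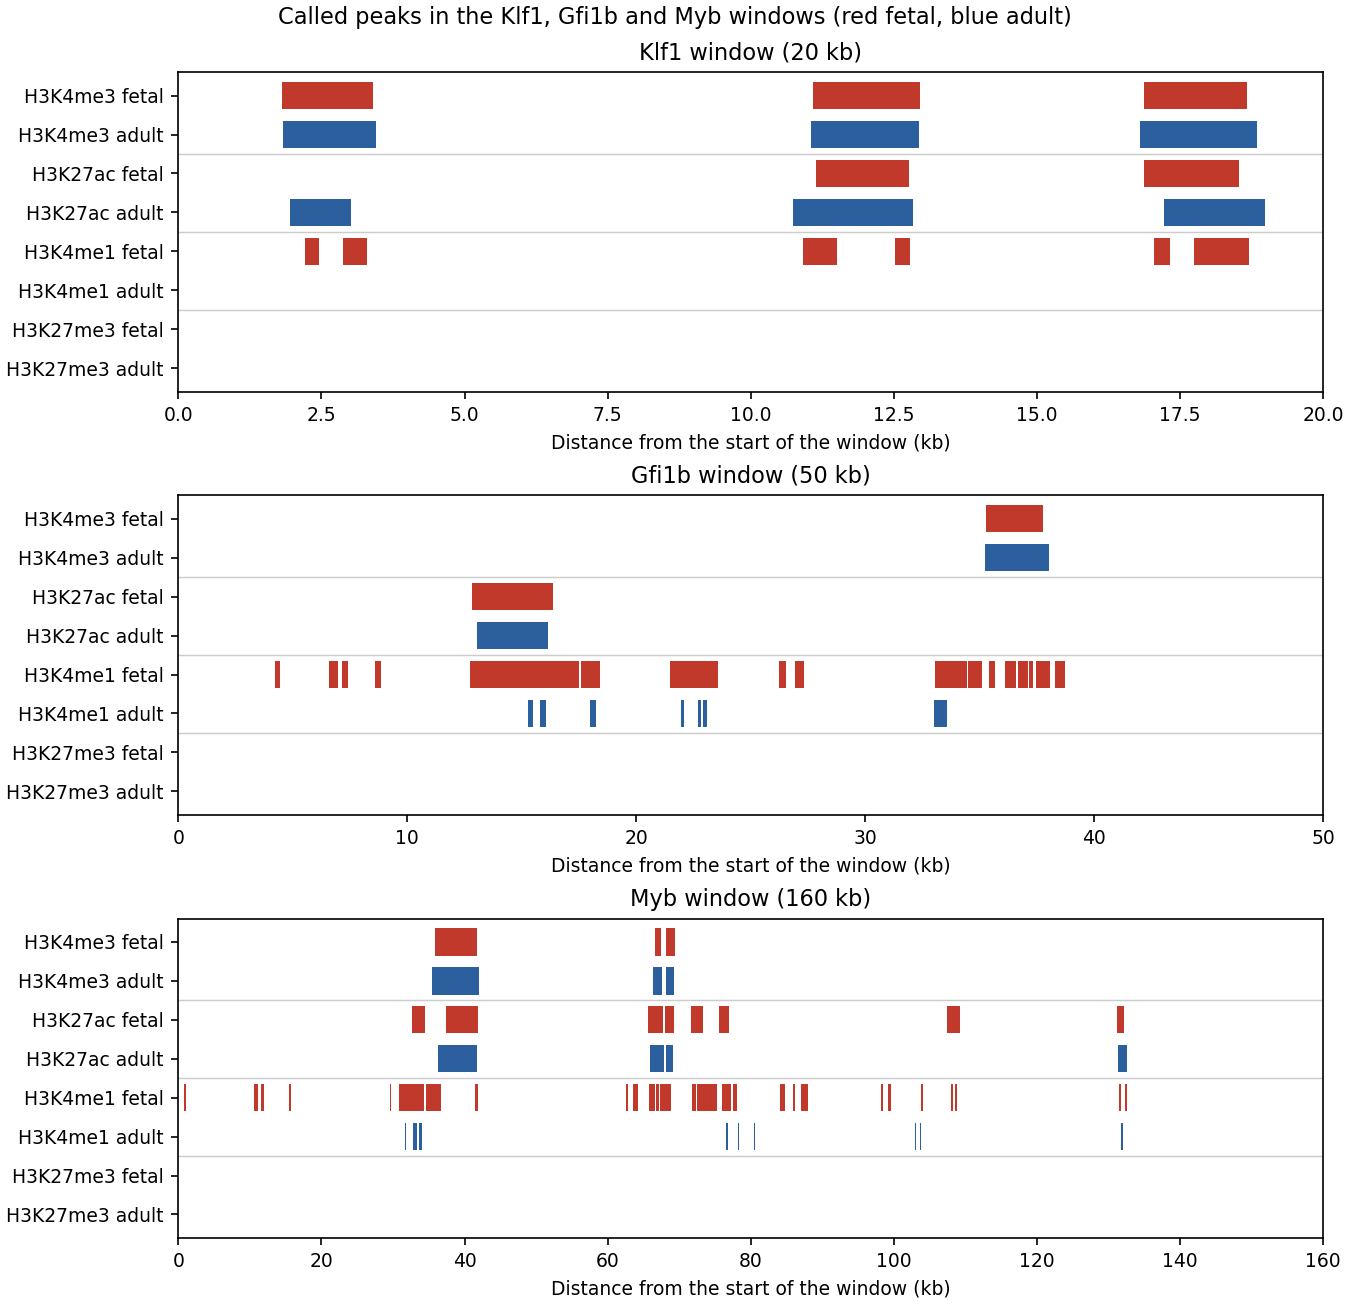
Called peaks in the Klf1 (20 kb), Gfi1b (50 kb) and Myb (160 kb) windows by distance from the window's start in kb, with 1 row per mark and stage (fetal red, adult blue). H3K4me3 occupies the same places at both stages, the Gfi1b region lacks H3K27ac, and 4 of 8 fetal H3K27ac peaks of the Myb window have no adult peak, against 34.7% of the fetal list and 60.6% of its peaks below the median score, where these 4 lie.

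Marks were denser in the 5 windows together than along the chromosomes, other than adult H3K27me3. H3K4me3 covered 5.22% of the windows in the fetal and 5.59% in the adult list, against 1.20% and 1.22% of the chromosomes up to the last peak. H3K27ac covered 7.97% and 5.74%, against 1.91% and 1.27%. H3K4me1 covered 11.0% and 1.25%, against 2.17% and 0.107%. H3K27me3 covered 2.03% and 0.107%, against 1.45% and 0.354%. By percent of the window, Klf1 was first for H3K4me3 and H3K27ac, Gfi1b first for H3K4me1 and the alpha-globin window alone for H3K27me3. By covered bp, Myb, the longest window, was first for H3K4me3, H3K27ac and H3K4me1 at both stages. The windows lie around genes, and no comparison with windows around other genes was made.

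**Figure D4:**
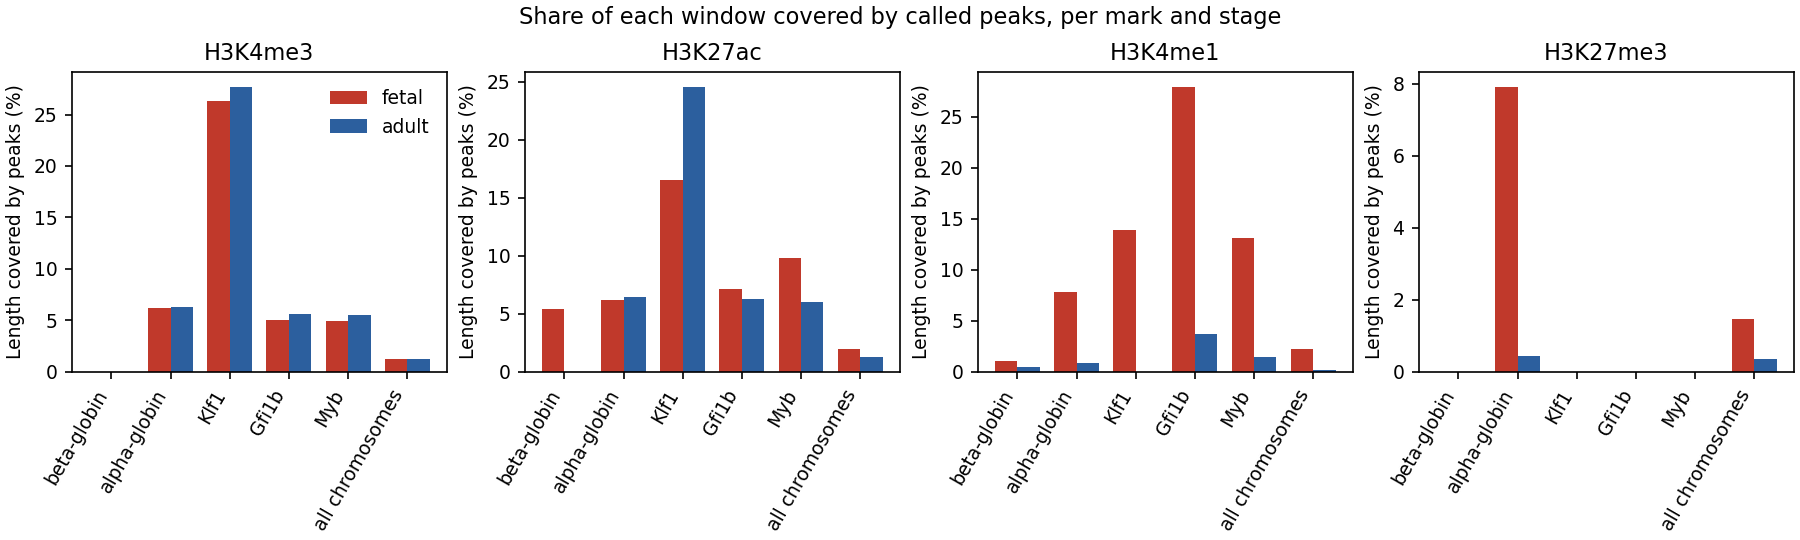
Percent of each window's length covered by called peaks, 1 panel per mark with its own scale, and the percent of all chromosomes for comparison (fetal red, adult blue). Klf1, the shortest window, leads for H3K4me3, with 26.3% and 27.7%, and Gfi1b for fetal H3K4me1, with 27.96%. The beta-globin window has no bar for H3K4me3.

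Ranks by score differed between loci and marks. The highest ranks belonged to Myb for H3K4me3, where 1.59% of the fetal and 1.79% of the adult list scored at least as high, and for H3K27ac, with 17.9% and 6.75%. Gfi1b had the highest rank for fetal H3K4me1, with 0.196%. For adult H3K4me1, Myb and Gfi1b were close, with 2.96% and 2.97%. Scores rank peaks within a list and are not a measure of change between stages.

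**Figure D5:**
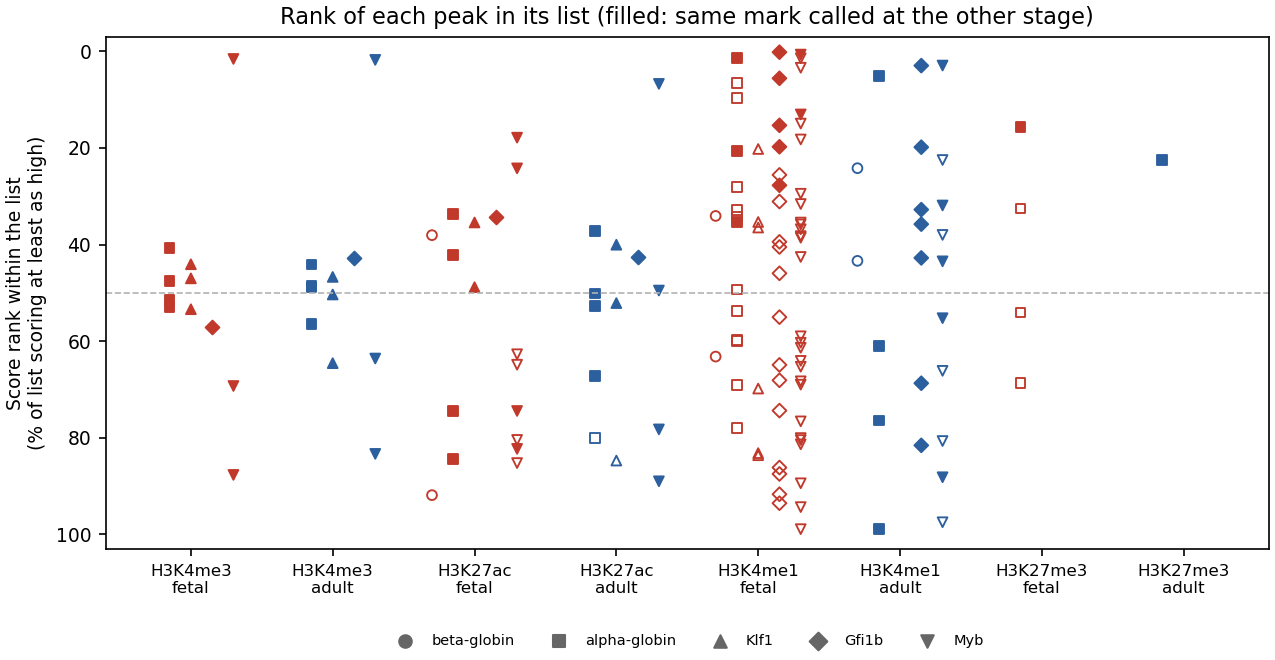
Rank of each of the 148 peaks by score within its own list, as the percent of the list that scored at least as high (top of the axis is strongest), by locus symbol. Filled symbols overlap a peak called for that mark at the other stage; all H3K4me3 symbols are filled, and the open symbols of fetal H3K27ac lie below the dashed line at 50% except for the wide beta-globin peak at 38.1%.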

How the data were processed

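Peak lists of 4 histone marks at 2 stages were used. The submitters' processing notes name Bowtie2 2.2.2 and mm9. In the deposited lists each peak is named with MACS in front, and the lists are titled as combined, where the labels give 2 replicates per mark and stage. The caller's version, settings and control are not given in the sources used here. Per the deposited lists the score of each peak is at least 50, and its scale is not stated. The 4 input samples, read counts and replicates were not analysed here, and the depth is unknown.

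The autosomes 1 to 19, X and Y were used, in 1-based coordinates. Overlap meant at least 1 bp. Tiles were consecutive stretches of a window's length up to the last peak of each chromosome. Shares were set beside those of the whole list. Named peaks were the widest or highest-scoring of a window, mark and stage. Others were named after their values were seen, namely the narrow or stage-restricted ones, those that flank an H3K4me3 region and the Gfi1b pair of adult H3K4me1 peaks. So were the remaining H3K4me3 regions with their H3K27ac, the shared acetylated Myb element and peaks that overlap a named peak. Members and lists were chosen with earlier results of these data known. Planned erythroid and cell type marker lists need mm9 gene positions and were not analysed here, so the sorted cells were not checked against markers. Genes were ordered, and upstream sequences taken, from RefSeq tables of GRCm38.p6, whose coordinates were not used.

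Alternatives kept peaks at or above the median score, took equal numbers of top-scoring peaks, joined neighbours up to 1 kb apart, asked for an overlap of 50% of the peak, or kept peaks wholly inside a window. The counting of overlaps was tested on simulated data. Python 3.11.15, numpy 2.4.6, pandas 2.3.3, scipy 1.17.1 and matplotlib 3.10.9 were used.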

Additional observations from a re-analysis of the deposited data

How the results depend on the processing

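No paired analysis was possible because the replicates of a mark and stage share 1 list, which also means that none of them could be left out. A number or length was taken as moved when it changed by more than 1.5-fold, and a share when it left its 95% interval. With peaks at or above the median score, there were 5 fetal and 6 adult H3K4me3 peaks, 8 and 5 H3K27ac peaks, 37 and 13 H3K4me1 peaks, and 2 fetal H3K27me3 peaks. The covered length was then 13046 bp for fetal H3K4me3, 21890 and 13944 bp for H3K27ac, and 3512 bp for adult H3K4me1. The share with the other stage was 66.7% of the 6 adult H3K4me3 and 100% of the 5 adult H3K27ac peaks. Numbers and lengths fall by construction, since fewer peaks are kept. With equal numbers of top-scoring peaks, 9 fetal H3K4me1 peaks covered 19309 bp, 55.6% of them had an adult peak, and 43.5% of adult peaks had a fetal one. The H3K27ac counts were then 12 fetal and 13 adult, against 17 and 13 as reported, and 69.2% of the adult ones had a fetal peak. These H3K27ac changes did not count as moved. With peaks merged within 1 kb there were 34 fetal and 15 adult H3K4me1 peaks, and 26.5% of the fetal ones had an adult peak. With 50% of the peak covered, 0% of fetal H3K4me1 and 0% of fetal H3K27me3 peaks had an adult peak. The median filter was applied to both lists, and equal numbers shortened the longer list, so partner peaks could be lost by construction. In the whole lists 0 of the 6 adult H3K4me3 peaks lacked a fetal peak. Adult peaks were narrower at the median, with 193 against 429 bp for H3K4me1 and 278 against 1406 bp for H3K27me3. The cause of the moved shares was not tested further. Keeping peaks wholly inside a window moved none of the 8 numbers. More fetal than adult H3K4me1 peaks were found under each alternative other than equal numbers, which gave 9 against 23. The covered length was still greater in the fetal list there, with 19309 bp against 5372 bp.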
